A study of Mus musculus with 6 samples.

Results

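The genes described here encode the tracks and motors of intracellular transport: the kinesin heavy and light chains, the chains of cytoplasmic dynein and of the dynein of cilia, the dynactin subunits, and the alpha-, beta- and gamma-tubulins. They were taken by gene symbol from the count table of the study, and 83 of its 19251 genes matched: 37 kinesin heavy chain genes, 4 kinesin light chain genes, 22 dynein chain genes, 6 dynactin genes and 14 tubulin genes. Polyadenylated RNA of the substantia nigra, whose dopaminergic neurons die in Parkinson's disease, was sequenced in 6 libraries from C57BL/6 mice. In 3 libraries the mice had been on intermittent fasting, with food withheld for 24 hours on 3 days of the week for 10 weeks, and in 3 they had fed ad libitum for the same 10 weeks and were moved between cages alongside the fasting mice. Every mouse of both groups carried rAAV-A53T-aSynuclein, a recombinant adeno-associated virus that, by its name, delivers the A53T form of alpha-synuclein, and the diets began 2 weeks after surgery. Mice without the vector were not analysed here, so the diets are compared only within this model. The sources used here do not give the promoter of the vector, the age of the mice or how long after a fast tissue was taken. Nor do they say that the libraries stand for different animals, and p-values therefore measure only the spread between these samples, which may be technical. Total counts ran from 42990234 to 48179706 per library.

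Microtubules are hollow polymers of alpha- and beta-tubulin, started by gamma-tubulin, and their ends differ. Most kinesins walk towards the fast-growing plus end, which in an axon points away from the cell body. Cytoplasmic dynein, which works with dynactin, walks the other way and carries endosomes, autophagosomes and trophic signals back. Dopaminergic neurons of the substantia nigra have very long and branched axons and depend on this traffic, and oligodendrocytes use the same machinery to move myelin RNA and membrane into their processes. A second dynein and some kinesins work in cilia, and other kinesins build the mitotic spindle.

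No kinesin, dynein, dynactin or tubulin gene was called as different between the diets by edgeR's quasi-likelihood test with Benjamini-Hochberg adjustment over all 19109 genes tested. Of the 82 genes that passed the filter on low counts, 0 were called at an adjusted p below 0.05, where 0.497% of all genes tested were, and the smallest adjusted p among them was 0.0685. At an unadjusted p below 0.05 there were 7 of the 82 higher under fasting (8.54%, against 8.74% of all genes) and 8 lower (9.76%, against 11.6% of all genes). DESeq2, a second count test, called 7 of the 83 (8.43%, against 7.4% of all genes), with 4 higher (4.82%, against 2.9% of all genes) and 3 lower (3.61%, against 4.51%), and limma-voom called 0. The 3 libraries of each diet did not overlap in 9 genes that were higher under fasting (11%, against 12.5% of all genes) and in 10 that were lower (12.2%, against 15%). These shares lay near or below those of the whole table except for the genes that DESeq2 called higher, a share that rests on 4 genes. The median log2 fold change, fasting minus ad libitum throughout, was 0.03 over the 82 genes, and over all genes tested it was -0.0050.

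Among the more abundant genes most differences were small, and edgeR called none of them. The median size of the log2 fold change was 0.11 over the 52 genes of this group with a mean of at least 10 CPM (each gene's count relative to the library total, scaled by TMM factors), and 0.107 over the 10391 genes of the table at that level. All of the 7 genes that DESeq2 called, except Dynlt4, were at that level. For 47 of these 52 genes the 95% interval of the fold change lay within 1.5-fold in either direction. The other 5 were Kif5a, Kif5b, Kif13b, Kif17 and Tubb2b, named for their intervals after the values were seen. Over all 82 genes tested the interval lay within 1.5-fold for 55 and not for 27. Only 5 of the 82 genes had a fitted log2 fold change beyond 0.5 in either direction, and of these only Kif13b exceeded 2 CPM. A p that misses the threshold does not show that a gene was equal under the 2 diets, and the intervals give the size of change these libraries leave room for.

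**Figure D1:**
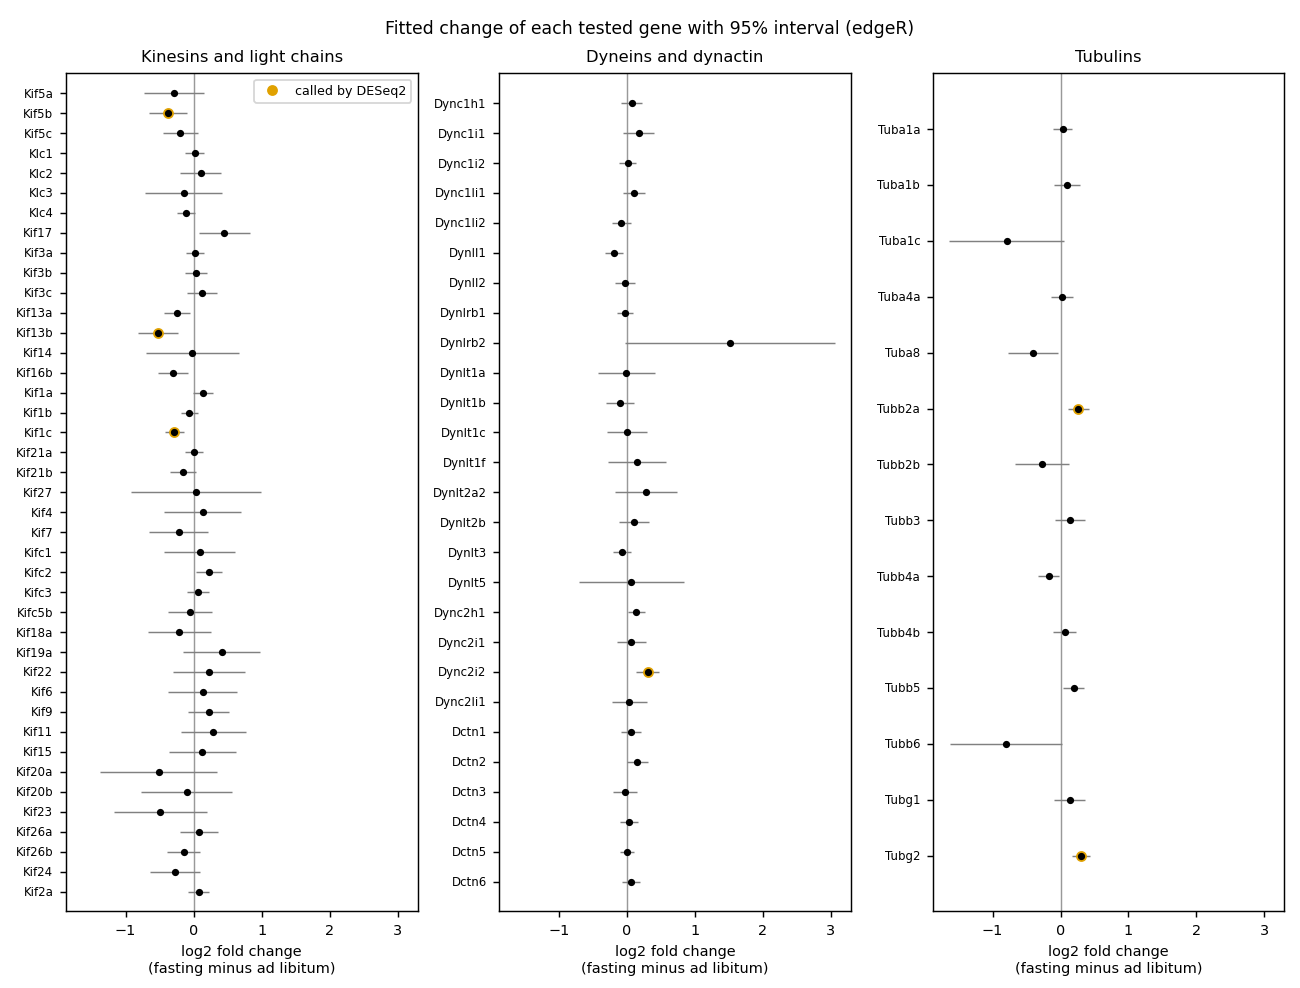
Fitted log2 fold change (x axis, fasting minus ad libitum) of the 82 tested genes, 1 row per gene, in 3 panels for kinesins, for dyneins with dynactin, and for tubulins. Points are edgeR estimates, bars are 95% intervals, and gold points mark the genes called by DESeq2. Dynlt4, which DESeq2 also called, was left untested by the filter and is not drawn. No gene was called by edgeR, and the widest intervals belong to genes of low count such as Dynlrb2.

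Several of these genes share much of their sequence with a relative, which bears on how reads were divided between them. In words of 31 bases, 77.0% of the transcript sequence of Tuba1a, 68.9% of that of Tuba1b, 56.4% of that of Tubb2a and 43.1% of that of Tubb2b also occur in transcripts of other genes, while 1.87% of that of Tubb4a, 3.47% of that of Tubb5 and 3.21% of that of Tubb3 do. In all, 14 of the 83 genes share more than 20% and 65 share less than 5%. Values of the first kind are therefore less certain. The ends of the coding sequences are shown because the tubulin tail they encode is where isotypes differ most, and because they show which genes a read can tell apart. Each line gives the last 60 coding bases with the stop codon, 5′ to 3′, from the GENCODE M21 transcripts of GRCm38, and capitals mark bases not matched by an identical base of Tubb2a when the whole coding sequences were aligned.
Tubb2a: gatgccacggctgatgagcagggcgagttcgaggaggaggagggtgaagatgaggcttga
Tubb2b: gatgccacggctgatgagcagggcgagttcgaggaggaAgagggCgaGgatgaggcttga
Tubb4a: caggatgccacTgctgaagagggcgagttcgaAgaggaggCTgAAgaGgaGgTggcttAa
Tubb5: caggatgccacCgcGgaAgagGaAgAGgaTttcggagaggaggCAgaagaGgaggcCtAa
Tubb3: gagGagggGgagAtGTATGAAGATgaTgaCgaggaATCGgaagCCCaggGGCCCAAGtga

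Tubb2b, which lies on chromosome 13 as Tubb2a does, differed from it at 3 of these 60 bases, and 96.5% of its whole coding sequence was identical to that of Tubb2a. Tubb4a was identical at 84.3% of its coding bases, Tubb5 at 84.8% and Tubb3 at 83.6%.

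Levels per transcript length, in CPM per kb of the longest coding transcript, placed tubulins and neuronal motors at the top of the group. Tuba1a, an alpha-tubulin of neurons, averaged 519.8 CPM per kb under fasting and 508 ad libitum. Kif5a, the heavy chain of conventional kinesin found mainly in neurons, averaged 427 CPM per kb under fasting and 522 ad libitum. Tuba1b averaged 464 CPM per kb under fasting and 434 ad libitum, Tubb4a 390.5 and 441, the dynein light chain gene Dynll2 288 and 293, and Tubb2a 294 and 246. Kif1a, the kinesin-3 motor of synaptic vesicle precursors, stood at 239.6 CPM per kb under fasting and 219 ad libitum, above the dynein heavy chain gene Dync1h1, at 72.5 and 69.2, and Dctn1, the large dynactin subunit, at 102 and 97.8. The order of Tuba1a, Kif5a and Tuba1b differed between libraries, and their levels overlapped. Kif14, a motor of dividing cells, was lowest of the 83 by its mean over all libraries, at 0.0341 CPM per kb under fasting and 0.0346 ad libitum. The length used matters for this order: with the median length of the coding transcripts Tuba4a ranked 5 in place of 15.

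**Figure D2:**
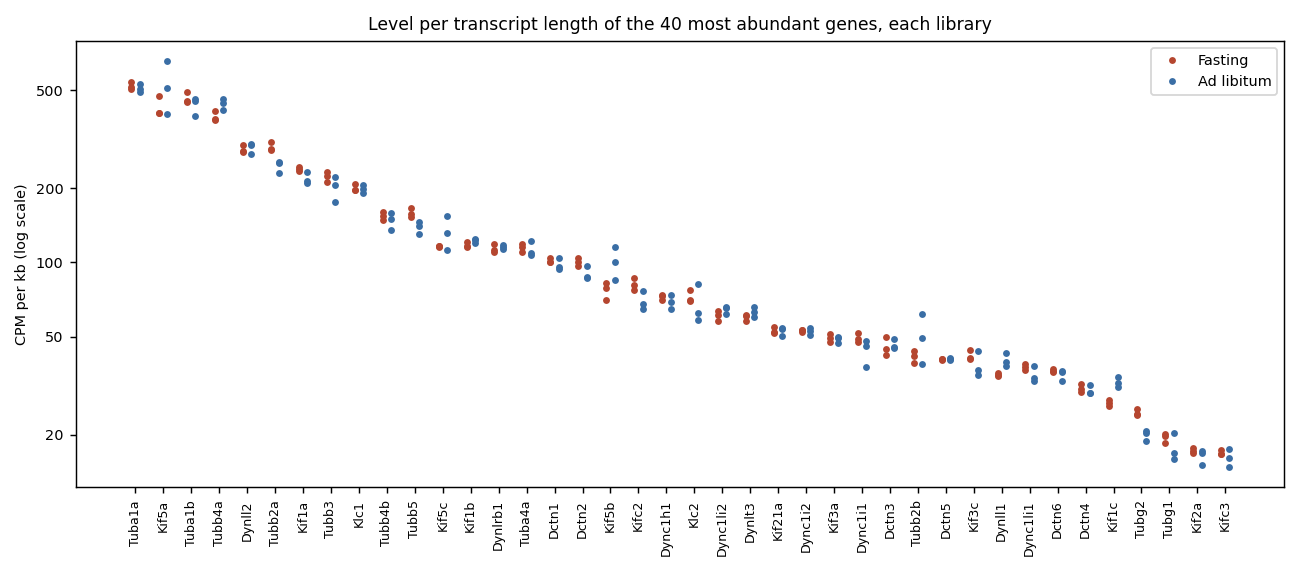
Level per transcript length (y axis, CPM per kb on a log scale) of the 40 genes of the group with the highest means, in order along the x axis, with 1 point per library, fasting in red at the left of each gene and ad libitum in blue at the right. Points of the diets lie close together for most genes, and Kif5a spreads most among the top genes because of ad libitum replicate 2, at 657 CPM per kb.

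Among the abundant beta-tubulins, Tubb2a and Tubb5 were higher and Tubb4a lower in every fasting library, though edgeR called none of them. Tubb2a, a beta-tubulin abundant in neurons, had 496, 465 and 462 CPM in fasting replicates 1, 2 and 3, against 406, 370.4 and 410.4 CPM in the ad libitum replicates (log2 fold change 0.26, SE 0.07, edgeR adjusted p = 0.100, DESeq2 adjusted p = 0.0103). Tubb5, a broadly expressed beta-tubulin, had 439, 418 and 405 CPM under fasting, against 385, 345 and 374 CPM ad libitum (0.19, SE 0.07, edgeR adjusted p = 0.172). Tubb4a, a beta-tubulin of neurons and myelinating oligodendrocytes, had 849, 918 and 842 CPM under fasting, against 1027, 992 and 929 CPM ad libitum (-0.18, SE 0.07, edgeR adjusted p = 0.205). In each of the 3 genes all fasting libraries lay on one side of all ad libitum libraries, on the high side for Tubb2a and Tubb5 and on the low side for Tubb4a. The sum of the 7 beta-tubulin genes overlapped between the diets, at 2532, 2588 and 2433 CPM under fasting and 2570.0, 2389 and 2445 CPM ad libitum.

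Because the sum overlapped, the share of each gene in the beta-tubulin level per length was computed within each library, a measure that no scaling between libraries can alter. Tubb4a made up 30.0%, 31.8% and 30.99% under fasting, against 36.1%, 37.8% and 34.2% ad libitum, a difference of -5.09 percentage points. Tubb2a made up 24.2%, 22.3% and 23.5% under fasting, against 19.7%, 19.5% and 20.9% ad libitum, a difference of 3.29 points. Tubb5 made up 13.03%, 12.2% and 12.5% under fasting, against 11.4%, 11.05% and 11.6% ad libitum, a difference of 1.24 points. None of these 3 shares overlapped between the diets, and for each the two-sided exact permutation p was 0.1, the smallest that 3 against 3 libraries can give, and 0.243 after adjustment over the 17 shares tested in the tubulin and kinesin-1 families. The share test was not planned, and it restates the CPM values above, which were already seen not to overlap. Shares of a library add up to a fixed total, so a lower Tubb4a share raises the sum of the others. The 3 differences are therefore not separate results. Not every other share was higher under fasting, with Tubb2b at a difference of -0.82 points. With each library left out in turn, and with median transcript lengths, settings chosen after the data were seen, the difference stayed between -5.99 and -4.22 points for Tubb4a and between 2.69 and 3.82 points for Tubb2a. Summed levels of 15 oligodendrocyte markers moved in the direction of Tubb4a, at 10814, 13548 and 11592 CPM under fasting and 15656, 21195 and 15624 CPM ad libitum. Of these markers 15 had a negative log2 fold change (100%, against 50.9% of all genes), and 0 were at 0 counts in any library. EdgeR called 3 of them, where it called 0.351% of all genes lower, and DESeq2 called 12 (80%, against 4.51% of all genes). Their part in the Tubb4a values was not tested, and in bulk tissue fewer cells of a type and less RNA per cell cannot be told apart.

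**Figure D3:**
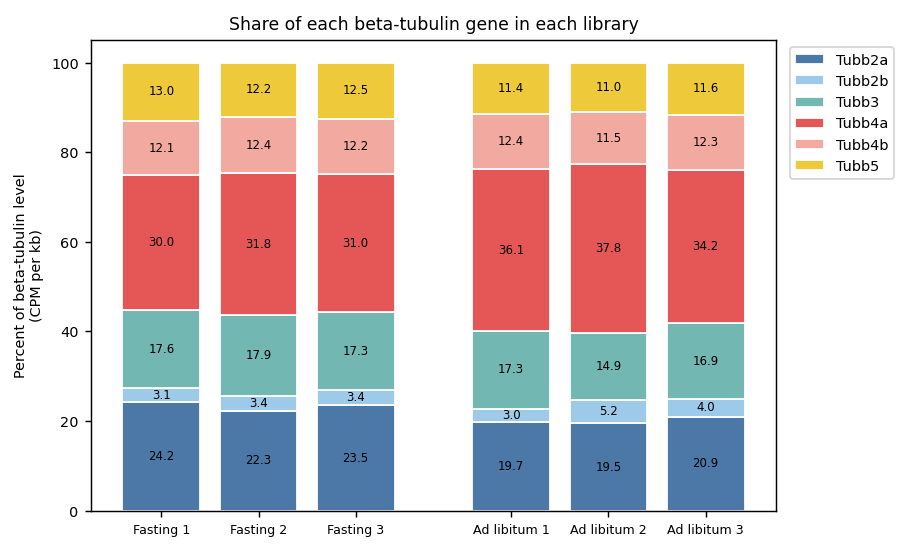
Share of 6 beta-tubulin genes in the summed beta-tubulin level per transcript length (y axis, percent) in each library, 3 fasting bars at the left and 3 ad libitum bars at the right, with each share printed in its segment. Tubb6, at most 0.0599%, is not drawn; Tubb4a takes at most 31.8% in the fasting libraries and at least 34.2% in the ad libitum libraries.

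The other beta-tubulins overlapped between the diets. Tubb3, the neuronal beta-tubulin, had 417, 434 and 394 CPM under fasting, against 414, 328 and 384 CPM ad libitum (0.15, SE 0.09, edgeR adjusted p = 0.432), and its value was 0.05 without ad libitum replicate 2. Tubb2b, the near copy of Tubb2a, had 84.9, 95.2 and 91.2 CPM under fasting, against 84.5, 135 and 108 CPM ad libitum, so its fitted sign was opposite to that of Tubb2a (-0.27, SE 0.16, edgeR adjusted p = 0.412). The difference between these 2 genes was not tested, and without ad libitum replicate 2, the library at 135 CPM, the value for Tubb2b was -0.09. Tubb4b, which also serves cilia, had a log2 fold change of 0.06. Tubb6, at 0.318 to 0.717 CPM under fasting and 0.847 to 1.28 CPM ad libitum, was too scarce for a narrow interval, which ran from -1.63 to 0.03.

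Alpha-tubulins showed no difference beyond their spread in the abundant genes. Tuba1a had 973, 926 and 912 CPM under fasting, against 886, 909 and 952 CPM ad libitum, with a 95% interval of its log2 fold change from -0.11 to 0.17. Tuba1b (0.09, SE 0.08) and Tuba4a (0.02, SE 0.07) overlapped likewise. The scarce Tuba8 had 3.62, 4.97 and 3.71 CPM under fasting, against 5.10, 5.80 and 5.41 CPM ad libitum (-0.41, SE 0.15, edgeR adjusted p = 0.205), without overlap. Tuba1c, at 0.637, 0.670 and 1.11 CPM under fasting and 0.826, 1.76 and 1.62 CPM ad libitum, overlapped, and 55.3% of its sequence is shared with other genes.

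Gamma-tubulin, which starts new microtubules within a ring complex, has a pair of genes in the mouse, and Tubg2 had the smallest p of the whole group. Tubg2, the form enriched in brain, had 44.5, 42.6 and 41.9 CPM under fasting, against 36.2, 33.0 and 35.6 CPM ad libitum (log2 fold change 0.30, SE 0.06, edgeR adjusted p = 0.0685, DESeq2 adjusted p = 0.00518). Every fasting library lay above every ad libitum library. Without ad libitum replicate 1 edgeR called it (0.33, adjusted p = 0.0375), and the adjusted p over the libraries left out in turn ran from 0.0375 to 0.290. Tubg1, the widely expressed form, had 35.6, 36.1 and 33.4 CPM under fasting, against 36.5, 28.7 and 30.4 CPM ad libitum, and overlapped (0.14, SE 0.10, edgeR adjusted p = 0.470), with a value of 0.06 without ad libitum replicate 2. Of their sequence, 23.6% of Tubg2 and 19.2% of Tubg1 is shared with other genes.

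Several kinesin-3 motors, which carry endosomes and vesicles, had lower values under fasting. Kif13b, which carries phosphoinositide and Dlg1 cargo, had 103, 126 and 105 CPM under fasting, against 157, 185 and 139 CPM ad libitum (log2 fold change -0.52, SE 0.12, edgeR adjusted p = 0.0943, DESeq2 adjusted p = 0.00426). Kif1c, a motor of dense-core vesicles, had 174, 184 and 179.7 CPM under fasting, against 208, 229 and 217 CPM ad libitum (-0.28, SE 0.06, edgeR adjusted p = 0.0732, DESeq2 adjusted p = 0.00211), and edgeR called it without ad libitum replicate 1 (-0.32, adjusted p = 0.0352). Neither gene overlapped between the diets, and ad libitum replicate 2 was the highest library for both. Kif13a, a motor of recycling endosomes, had 65.1, 72.5 and 64.5 CPM under fasting, against 76.5, 88.4 and 75.3 CPM ad libitum (-0.25, SE 0.08, edgeR adjusted p = 0.159). Kif16b, a motor of early endosomes, had 15.0, 19.1 and 16.7 CPM under fasting, against 20.9, 21.1 and 20.7 CPM ad libitum (-0.30, SE 0.09, edgeR adjusted p = 0.144). Kif13a and Kif16b, chosen after their values were seen, did not overlap between the diets either. Of the 7 kinesin-3 genes tested 6 had a log2 fold change below 0 (85.7%, against 50.9% of all genes), including the scarce Kif14 at -0.02 and the overlapping Kif1b at -0.06. DESeq2 called 2 of the 7 lower (28.6%, against 4.51% of all genes), the family was singled out after its values were seen, and no difference between families was tested. The oligodendrocyte marker sums given above were lower under fasting as well, and so were those of 10 microglia markers, at 314, 317 and 322 CPM under fasting and 409, 556 and 519 CPM ad libitum. Of the microglia markers 10 of 10 were below 0 (100%, against 50.9% of all genes), and 0 were at 0 counts in any library. EdgeR called 3 of them, where it called 0.351% of all genes lower, and DESeq2 called 10 (100%, against 4.51% of all genes). Sums of 6 oligodendrocyte precursor markers were 437, 532 and 471 CPM under fasting and 637, 772 and 607 CPM ad libitum, with 6 below 0 (100%), 0 called by edgeR and 4 by DESeq2 (66.7%). Sums of 8 astrocyte markers were 2836, 2548 and 2780.2 CPM under fasting and 2884, 3477 and 3841 CPM ad libitum, with 7 below 0 (87.5%), 0 called by edgeR and 3 by DESeq2 (37.5%). Their part in the kinesin-3 values was not tested.

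The 2 most abundant kinesin-3 motors lay closer to 0. Kif1a had 2007, 1958 and 1934 CPM under fasting, against 1909, 1718 and 1756 CPM ad libitum (log2 fold change 0.13, SE 0.06, edgeR adjusted p = 0.291), so its fasting libraries all lay above the others. Kif1b, which moves mitochondria and synaptic vesicle precursors, had 1191, 1234 and 1180.4 CPM under fasting, against 1263, 1278 and 1224 CPM ad libitum, with overlap and an interval from -0.19 to 0.07. Summed levels of 12 general neuron markers overlapped as well, at 7786, 7753 and 7383 CPM under fasting and 8494, 6085 and 6915 CPM ad libitum. These markers were mixed in direction, with 7 above 0 and 5 below (41.7%, against 50.9% of all genes). EdgeR called 0 of them, and DESeq2 called 1, lower under fasting (8.33%, against 4.51% of all genes). None of the differences between these motors was tested.

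Conventional kinesin, whose heavy chains carry mitochondria and vesicles along axons, varied mostly among the ad libitum libraries. Kif5a had 2547, 2541 and 2982 CPM under fasting, against 3220.4, 4134 and 2509 CPM ad libitum (-0.29, SE 0.18, edgeR adjusted p = 0.425). Kif5c, a neuronal heavy chain, had 789, 799 and 798 CPM under fasting, against 901, 1057 and 772 CPM ad libitum (-0.19, SE 0.11, edgeR adjusted p = 0.374). Kif5b, the heavy chain of all cells, had 426, 498 and 475 CPM under fasting, against 607, 696 and 514 CPM ad libitum (-0.38, SE 0.12, edgeR adjusted p = 0.148, DESeq2 adjusted p = 0.0477). All 3 genes were highest in ad libitum replicate 2, and of them Kif5b alone did not overlap between the diets. Without that library the log2 fold changes were -0.10 for Kif5a, -0.08 for Kif5c and -0.27 for Kif5b. Within each library the division between them was steady, with Kif5a at 68.5%, 67.0% and 70.8% of the kinesin-1 heavy chain level per length under fasting and 68.8%, 70.9% and 66.8% ad libitum. The light chains that join this motor to its cargo overlapped in Klc1 (log2 fold change 0.01, SE 0.06), Klc2 (0.10, SE 0.13) and Klc3 (-0.15, SE 0.24), and Klc4 had 21.9, 22.7 and 21.2 CPM under fasting, against 24.3, 23.4 and 23.7 CPM ad libitum (-0.12, SE 0.06).

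**Figure D4:**
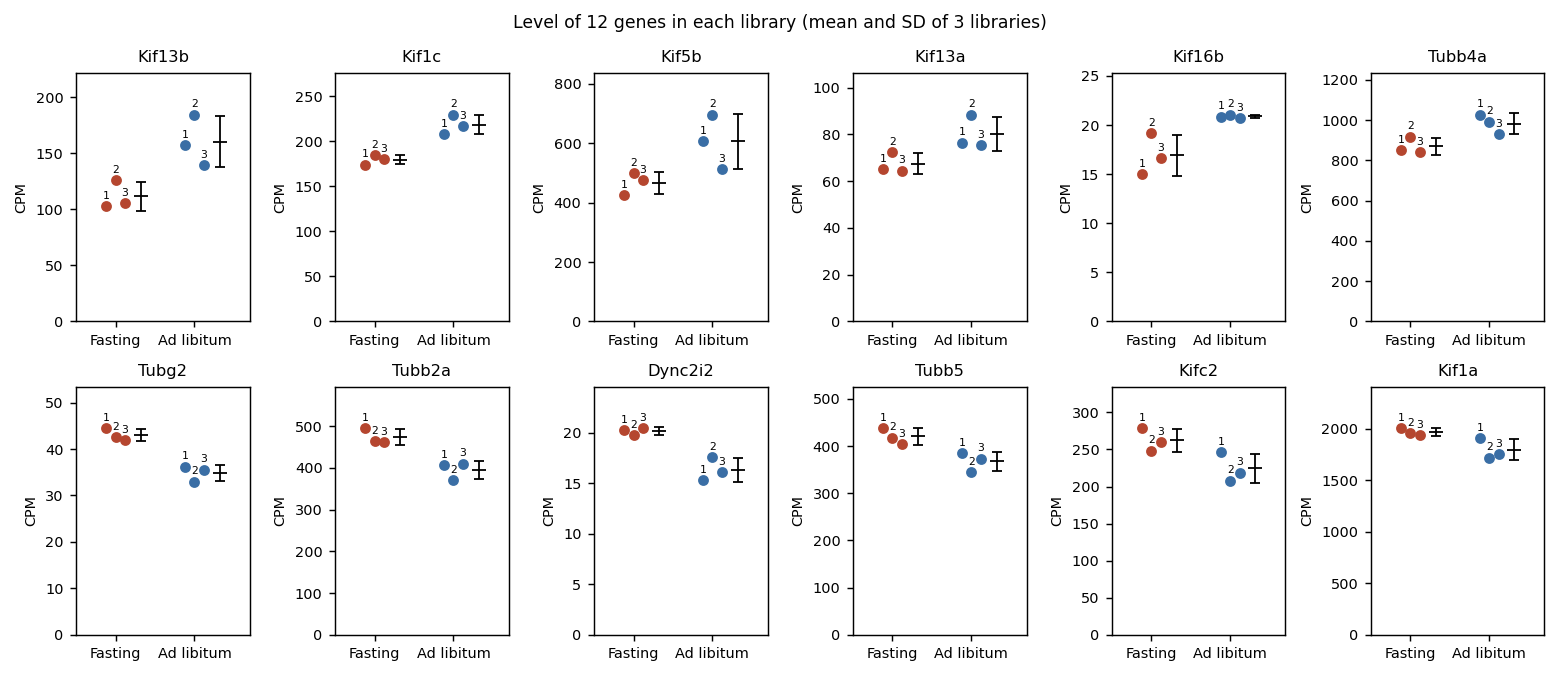
Level of 12 genes (y axis, CPM, from 0) in each library, fasting in red at the left and ad libitum in blue at the right of each panel, with the replicate number above each point and the mean and SD of 3 libraries as a bar beside the points. The upper row holds genes with all fasting libraries below the ad libitum libraries and the lower row the reverse, and none was called by edgeR.

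The library that stood apart most often was ad libitum replicate 2. It was the highest or the lowest of the 6 libraries in 46 of the 82 genes tested (56.1%) and in 45.8% of all genes tested, while each of the other libraries was so in 23.2% to 34.1% of the 82. Of the 55 genes named by rule, 23 moved by over 1.5 times or changed the sign of their log2 fold change without it, 5 of them in sign (Kif3a, Tuba4a, Tubb4b, Kif21a and Kifc3, all within 0.07 of 0 with every library). It was the highest in Kif5a, Kif5b, Kif5c, Kif13a, Kif13b, Kif16b and Kif1c and the lowest in Tubg2, Tubb2a, Tubb5, Kifc2 and Kif1a. It also held the highest sums of the oligodendrocyte markers, given above, and of 5 cholinergic neuron markers, at 95.1 CPM against 12.2, 12.04 and 19.4 CPM under fasting and 10.5 CPM in each of the other ad libitum samples. Dopamine neuron markers, which define the labelled tissue, were present in every library, with 8 of 8 measured and sums of 784, 1341 and 707 CPM under fasting and 822, 776 and 1975 CPM ad libitum. The sums overlapped, but all 8 markers had a log2 fold change below 0 (100%, against 50.9% of all genes), with a median of -0.34. Ad libitum replicate 3 alone held the highest sum, and ad libitum replicates 1 and 2 lay below fasting replicate 2. Of the 8, 0 were called by edgeR and 0 by DESeq2. The part of these marker levels in the kinesin and tubulin values was not tested.

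The kinesin-2 motors, which carry both axonal cargo and the building blocks of cilia, had log2 fold changes above 0, except that Kif3a was at -0.0094 without ad libitum replicate 2. Kif17, a dendritic motor of NMDA receptor vesicles, had 20.3, 18.3 and 21.3 CPM under fasting, against 14.1, 18.0 and 11.7 CPM ad libitum (0.45, SE 0.16, edgeR adjusted p = 0.180), without overlap but with fasting replicate 2 next to ad libitum replicate 2. Kif3a (0.02, SE 0.05), Kif3b (0.03, SE 0.07) and Kif3c (0.12, SE 0.09) overlapped between the diets. Among the kinesin-14 motors, which walk towards the minus end, Kifc2 had 279, 248 and 260.1 CPM under fasting, against 246, 208 and 219 CPM ad libitum (0.23, SE 0.08, edgeR adjusted p = 0.188), and Kifc3 overlapped (0.06, SE 0.07). Kif21a and Kif21b, kinesin-4 motors that also restrain microtubule growth, overlapped, with log2 fold changes of 0.0046 and -0.16. Kif2a, which takes microtubules apart in growing neurites, overlapped too (0.07, SE 0.06).

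Kinesins of the mitotic spindle were near the lower limit of the table, and their summed level overlapped between the diets. The summed level of the 11 measured genes was 10.8, 10.4 and 10.8 CPM under fasting, against 10.6, 10.7 and 10.9 CPM ad libitum. Their log2 fold changes had a median of -0.02, and the largest in size were Kif20a at -0.52 (SE 0.36) and Kif23 at -0.49 (SE 0.29), both motors of cell cleavage, with overlap in each, and Kif23 was at -0.24 without ad libitum replicate 2. Summed levels of the 5 measured markers of dividing cells overlapped as well, at 4.53, 4.09 and 5.91 CPM under fasting and 4.23, 4.94 and 4.72 CPM ad libitum. The markers themselves differed in direction, with log2 fold changes from -1.01 to 0.56. Without overlap, 1 of the 5 was higher under fasting (against 12.5% of all genes) and 2 were lower (against 15%). EdgeR and DESeq2 called 0 of them. Of the mitotic genes Kifc1 and Kifc5b share 57.2% and 51.6% of their sequence, mainly with each other.

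Cytoplasmic dynein and dynactin, the retrograde motor and its activator, showed no difference beyond the spread. Dync1h1, the heavy chain that holds the motor, had 1061, 1049.7 and 1011 CPM under fasting, against 1059, 929.6 and 989.5 CPM ad libitum (0.07, SE 0.07, 95% interval from -0.09 to 0.23). All 5 heavy, intermediate and light intermediate chain genes overlapped between the diets, with log2 fold changes from -0.09 to 0.17. All 6 dynactin genes overlapped too, from -0.03 to 0.15. Dctn1, whose protein binds microtubules and dynein, was at 0.06 (SE 0.06) and Dctn2, which shapes the shoulder of the complex, at 0.15 (SE 0.07, edgeR adjusted p = 0.263). Dctn5 differed least, with 61.6, 62.1 and 61.9 CPM under fasting and 61.4, 62.3 and 62.5 CPM ad libitum. Of the light chains Dynll1, which also binds many proteins outside dynein, had 71.1, 72.5 and 70.2 CPM under fasting, against 80.1, 87.0 and 77.2 CPM ad libitum (-0.19, SE 0.06, edgeR adjusted p = 0.141), without overlap. Its more abundant relative Dynll2 had 696, 742 and 698 CPM under fasting and 744, 683 and 747 CPM ad libitum. The 4 Dynlt1 genes of the table share between 71.0% and 92.7% of their sequence with other genes, mostly with each other, and their values are uncertain.

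Genes of cilia held the largest ratios of the group, at low levels. Dynlt4, a light chain of the Tctex type, had 29, 3 and 36 counts in fasting replicates 1, 2 and 3, against 0, 1 and 2 counts in the ad libitum replicates. It was the 1 gene of the 83 that the filter left untested. The ratio of the summed counts, 68 under fasting and 3 ad libitum, was 24.1 after scaling for depth, with an exact 95% interval from 7.90 to 120 that covers counting error only. Tested without the filter it was not called by edgeR (log2 fold change 4.41, adjusted p = 0.107), and DESeq2 called it (4.57, adjusted p = 0.00903). Dynlrb2, a roadblock light chain known from ciliated tissues, had 1.46, 0.277 and 1.51 CPM under fasting, against 0.296, 0.558 and 0.278 CPM ad libitum (1.51, SE 0.64, edgeR adjusted p = 0.254). Its fasting replicate 2 was as low as the lowest ad libitum library, and the value rested on fasting replicates 1 and 3. Kif19a, which sets the length of cilia, overlapped, with 4.07, 3.70 and 5.03 CPM under fasting, against 2.41, 4.34 and 2.86 CPM ad libitum (0.41, SE 0.24).

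Markers of ependymal and other cells with motile cilia, when summed, were highest in the same 2 fasting libraries. Their sum over 11 measured genes was 55.8, 28.0 and 66.5 CPM under fasting, against 22.2, 30.3 and 25.4 CPM ad libitum. All 11 had a positive log2 fold change, with a median of 2.18, while 50.9% of all genes were below 0. In 7 of the 11 every fasting library, replicate 2 included, lay above every ad libitum library (against 12.5% of all genes), and 4 overlapped. Of the 11, 0 were called by edgeR and 0 were at 0 counts in any library. At an unadjusted edgeR p below 0.05 there were 8 (72.7%, against 8.74% of all genes higher), and DESeq2 called 6 (54.5%, against 2.9%). Tmem212 had 2.16, 0.324 and 2.24 CPM under fasting, against 0.0423, 0.103 and 0.0214 CPM ad libitum. Foxj1, the transcription factor that defines motile cilia, overlapped at 14.03, 11.3 and 15.8 CPM under fasting and 11.7, 14.6 and 12.95 CPM ad libitum. Their part in the Dynlt4 and Dynlrb2 values was not tested.

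**Figure D5:**
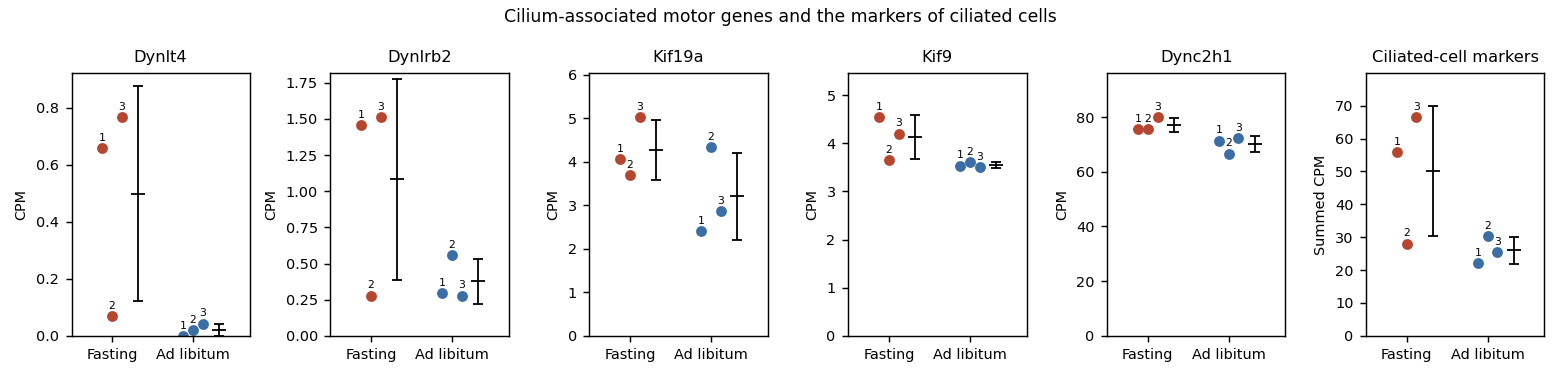
Level of 5 cilium-associated motor genes (y axis, CPM) and, in the last panel, the summed CPM of 11 markers of ciliated cells, in each library, fasting in red at the left and ad libitum in blue at the right, numbered by replicate, with mean and SD of 3 libraries beside the points. Fasting replicates 1 and 3 stand above the other libraries in Dynlt4, Dynlrb2 and the marker sum, and fasting replicate 2 lies near the ad libitum libraries there.

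The dynein of cilia, which returns cargo from the tip of the cilium in nearly every cell type, was steadier than those light chains. Dync2i2, an intermediate chain, had 20.3, 19.8 and 20.5 CPM under fasting, against 15.3, 17.6 and 16.1 CPM ad libitum (0.30, SE 0.07, edgeR adjusted p = 0.0905, DESeq2 adjusted p = 0.0295). Dync2h1, the heavy chain, had 75.6, 75.7 and 80.1 CPM under fasting, against 71.4, 66.7 and 72.4 CPM ad libitum (0.14, SE 0.05, edgeR adjusted p = 0.224). Neither overlapped between the diets, and for both fasting replicate 2 lay with the other fasting libraries. The remaining chain genes Dync2i1 (0.06, SE 0.09) and Dync2li1 (0.03, SE 0.11) overlapped. Kif9, a motor of motile cilia, had 4.55, 3.65 and 4.201 CPM under fasting, against 3.54, 3.61 and 3.51 CPM ad libitum (0.22, SE 0.13). Over the 6 ciliary kinesin genes tested, Kif19a and Kif9 among them, the median log2 fold change was 0.08. Of the 6, 4 were above 0 and 2 below (33.3%, against 50.9% of all genes), the latter Kif24 at -0.27 (SE 0.16) and Kif7 at -0.22 (SE 0.18). Neither edgeR nor DESeq2 called any of the 6.

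Partners of these motors and tracks were not called by edgeR either. Of 144 tested genes for motor adaptors, microtubule-associated proteins, tubulin folding and modifying enzymes and the gamma-tubulin ring complex, 0 were called by edgeR, 16 were higher and 14 lower at an unadjusted p below 0.05, and DESeq2 called 4 higher and 4 lower, with a median log2 fold change of 0.04. At the unadjusted threshold these were 11.1% higher, against 8.74% of all genes, and 9.72% lower, against 11.6%, and the DESeq2 calls were 2.78% in each direction, against 2.9% and 4.51%. Hap1, which links dynactin and kinesin to huntingtin and is strong in hypothalamic neurons, had 347, 385 and 396 CPM under fasting, against 209.8, 295 and 259.9 CPM ad libitum (0.56, SE 0.13, edgeR adjusted p = 0.0856, DESeq2 adjusted p = 0.00141). Cdk5rap2, which anchors and activates the gamma-tubulin ring complex, had 35.6, 37.8 and 39.5 CPM under fasting, against 44.2, 50.3 and 50.5 CPM ad libitum (-0.36, SE 0.07, edgeR adjusted p = 0.0712, DESeq2 adjusted p = 0.00477). Neither overlapped between the diets. Summed levels of 6 hypothalamic neuron markers, which bear on Hap1, were 116, 154 and 144 CPM under fasting and 28.9, 523 and 12.9 CPM ad libitum, and their part in its values was not tested. Ttll6, which adds glutamate chains to tubulin in cilia, had 1.57, 0.532 and 1.34 CPM under fasting, against 0.296, 0.103 and 0.299 CPM ad libitum, without overlap (2.29, SE 0.53, edgeR adjusted p = 0.0894, DESeq2 adjusted p = 0.00434). It was highest in the 2 libraries with the highest ciliated-cell marker sums. It was lowest in ad libitum replicate 2, whose marker sum was the highest of its diet. The part of ciliated cells in the Ttll6 values was not tested. Hook2, a dynein adaptor (0.35, SE 0.09, edgeR adjusted p = 0.103, DESeq2 adjusted p = 0.0378), Map9, which stabilises microtubules (0.25, SE 0.06, edgeR adjusted p = 0.100, DESeq2 adjusted p = 0.0241), and Tubgcp2, a subunit of the ring complex (0.20, SE 0.06, edgeR adjusted p = 0.144, DESeq2 adjusted p = 0.122), did not overlap between the diets, with the fasting libraries higher in each. Of these 6 genes DESeq2 called all but Tubgcp2, and the 3 other genes of the lists that it called were Bicd2, a dynein adaptor (-0.24), Fez1, a kinesin-1 adaptor (-0.34), and Tppp, a tubulin polymerising protein of oligodendrocytes (-0.27).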

How the data were processed

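The deposited values are estimated counts for each gene, already whole and unscaled. Salmon, DESeq2 1.40.2 and the build GRCm39 (mm39) are named per the submitters' processing notes, in roles not stated. Libraries were made with a strand-keeping kit, per the labels' protocols. Columns were matched to samples by label, and 0 columns were unused. Genes were filtered with filterByExpr, which left 142 untested, scaled by TMM and compared by edgeR 4.0.16 (quasi-likelihood, two-sided) with robust shrinkage (R 4.3.3), no covariate, adjustment over all tested genes and a threshold of 0.05. SE is the size of the log2 fold change over the square root of F. Alternatives were DESeq2 1.42.0, limma-voom (limma 3.58.1), other scaling and filters, a replicate block and each library left out. Scripts were tested on simulated data. GENCODE M21 (GRCm38), another build, gave transcript lengths (for levels per kb) and sequences for all 83 genes, and no coordinates are given. Intervals of counts cover counting error only. Genes were chosen by symbol, and lists and named genes by rule (19 fixed genes, each family's 2 smallest p and highest mean, each partner list's 2 smallest p), with earlier results of these data known. Others named, such as Kif13a, Kif16b, Kif3b, Klc3, Kif14, Kif20a, Tubb6, Dctn5, Bicd2, Fez1 and Tppp, were chosen after their values were seen. Genes of the rule not named above were Kif26b (log2 fold change -0.15), Dync1i1 (0.17), Dync1li1 (0.10), Clip1 (0.22) and Tbce (0.17), none called by edgeR or DESeq2.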

Additional observations from a re-analysis of the deposited data

How the results depend on the processing

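The count of 0 kinesin, dynein, dynactin and tubulin genes called held with limma-voom, RLE scaling, no filter, a mean count of at least 50 and no robust shrinkage. It was 7 with DESeq2, where 1395 genes of the table were called in place of 95. With libraries left out in turn it ran from 0 to 2, the 2 being Kif1c and Tubg2 without ad libitum replicate 1, where 1187 genes were called; the cause was not tested. The median log2 fold change over the group ran from -0.0008 to 0.0327 with libraries left out, at 0.0098 without ad libitum replicate 1 and -0.0008 without ad libitum replicate 2. Of the 144 partner genes 0 were called, 8 with DESeq2, and from 0 to 6 with libraries left out, the 6 without ad libitum replicate 1. Whether replicate numbers pair the samples cannot be decided from deviations around means of only 3 libraries per diet. Deviations of same-numbered libraries correlated at 0.350, 0.018 and -0.155, and those of differently numbered libraries at -0.252 to 0.267. Not every library correlated best with its own number. With the number as a replicate block, 285 genes of the table were called, with 1 of this group, Kif13b, and 2 of the partner genes. Of 55 named genes, 7 changed the sign of their fitted log2 fold change under some alternative. Libraries of a diet differed by more than counting noise, with a chi-square per degree of freedom from 8.17 to 77.6, so the spread between libraries set the intervals of abundant genes. Genes under about 2 CPM, such as Dynlrb2, were limited by counts and by the spread between libraries.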
